A study of Mus musculus with 2 samples.

Results

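The genes described here are the 37 genes of the mouse mitochondrial genome and 7 genes in a copy of mitochondrial DNA inserted into nuclear chromosome 1. They were taken as all gene symbols that start with mt- (13 protein-coding, 2 rRNA and 22 tRNA genes) and all genes that start in a window of chromosome 1 around the pseudogene Gm28439. This gave 44 of 69691 entries in the deposited gene table, of which 43346 are Ensembl genes. Polyadenylated RNA was sequenced from the liver of 1 untreated adult female C57BL/6J mouse aged 10 weeks, with no transgene or mutation named in the labels. RNA was extracted with a kit for fatty tissue, and the labels give a size range of 350 to 450 without a unit. The 2 libraries are labelled as technical replicates 2 and 1 of this animal, library 2 was made in May 2015, and library 1 has no date of its own. Every SD below is over these 2 libraries (n = 2) and is a technical spread. A library effect cannot be told apart from one of date or handling.

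The deposited expected counts, which are estimates per gene of the number of reads or fragments, sum to 19525500 in library 2 and 23309905 in library 1. Markers of hepatocytes, the main cell of liver, were abundant in both libraries. The albumin gene Alb had 49848 TPM in library 2 and 22689.5 TPM in library 1, where TPM is abundance per effective transcript length on a scale with the same sum in each library. The apolipoprotein gene Apoa1 had 5424 TPM in library 2 and 906 TPM in library 1, the transthyretin gene Ttr had 3779 TPM in library 2 and 422 in library 1, and the urea cycle gene Cps1 had 875 TPM in library 2 and 768 in library 1.

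Mitochondria keep a small circular genome that codes for core subunits of the respiratory chain and of ATP synthase, and for the RNAs of their own ribosomes. Both strands are transcribed into long precursors that are cut at the tRNAs. Most of the freed messenger RNAs receive short poly(A) tails, so these enter libraries selected for poly(A). Liver is rich in mitochondria, which host fatty acid oxidation and the first steps of the urea cycle there. Pieces of mitochondrial DNA have entered the nuclear genome during evolution, and a recent insertion can be nearly identical to its source. Reads from such a stretch fit both places, and an estimator has to divide them.

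The chromosome 1 copy carried 7 genes, all annotated as unprocessed pseudogenes on the minus strand, between chr1:24611535-24616197 (GRCm38), a stretch of 4663 bases. Read along that strand they follow the order of the mitochondrial genome: Gm29216 matches the end of mt-Co1, followed by Gm28661 (mt-Co2), Gm10925 (mt-Atp6), Gm28437 (mt-Co3), Gm28438 (mt-Nd3), Gm10222 (mt-Nd4l) and Gm28439, which matches the start of mt-Nd4. Over 4149 bases compared, 7 single-base differences were found, and 5 of the 7 copies were identical to the mitochondrial gene over their whole length. mt-Atp8 lies between mt-Co2 and mt-Atp6 in the mitochondrial genome. The 233 bases between Gm10925 and Gm28661 hold no annotated gene, so mt-Atp8 has no copy of its own in the table.

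**Figure D1:**
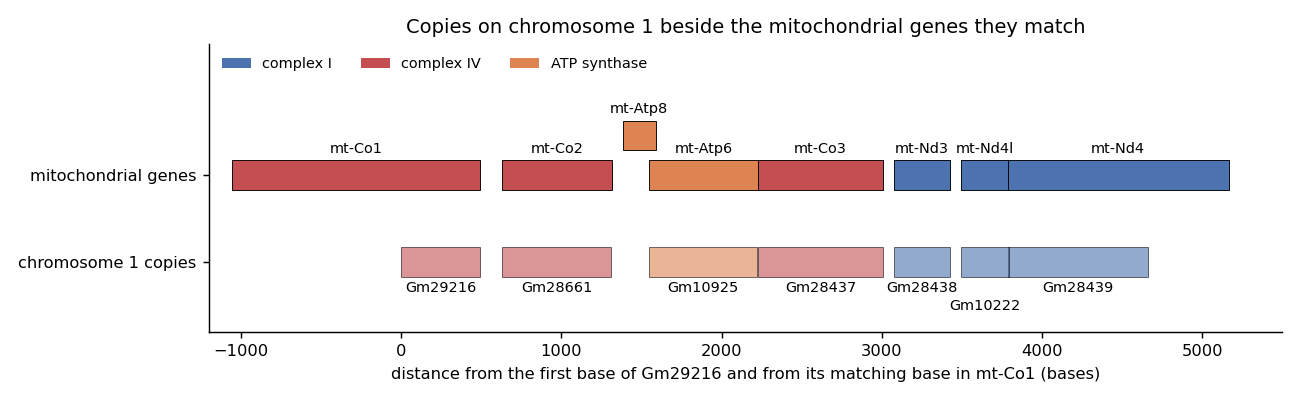
Position of the 7 chromosome 1 genes (lower row) beside the 8 mitochondrial genes of the same stretch (upper row), drawn to scale as distance in bases from the first base of Gm29216 and from its matching base in mt-Co1. Colours mark the respiratory complex; 5 copies span a mitochondrial gene to within 3 bases of its end, Gm29216 and Gm28439 cover part of theirs, and no gene is annotated beneath most of mt-Atp8.

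The ends of the 5 nearly complete copies show how little separates them from their source. The last bases of 3 mitochondrial genes are printed with those of the copy, 5′ to 3′, from the transcript sequences of GENCODE M21, and capitals mark the bases that lie beyond the end of the copy. mt-Co3 is shown over chrM:9351-9390 (plus strand) with Gm28437 over chr1:24613189-24613227 (minus strand). mt-Co2 is shown over chrM:7657-7696 with Gm28661 over chr1:24614885-24614921, and mt-Atp6 over chrM:8568-8607 with Gm10925 over chr1:24613974-24614010.
mt-Co3: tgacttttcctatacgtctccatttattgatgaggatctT
Gm28437: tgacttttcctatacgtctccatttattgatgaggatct
mt-Co2: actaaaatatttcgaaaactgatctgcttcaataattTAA
Gm28661: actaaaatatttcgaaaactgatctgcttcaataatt
mt-Atp6: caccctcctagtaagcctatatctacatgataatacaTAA
Gm10925: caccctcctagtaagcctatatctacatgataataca
The 784 bases of mt-Co3 thus exceed Gm28437 by 1 base, and only 1 of its 685 windows of 100 bases does not occur in the copy. For mt-Co2 it was 3 of 585 windows and for mt-Atp6 3 of 582. mt-Nd4l exceeds Gm10222 by 3 bases, which leaves 3 of 198 windows outside the copy.

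Single-base differences were found in 2 pairs. Positions are counted from base 1 at the 5′ end of the mitochondrial transcript, with the mitochondrial base first and the copy's base last. mt-Nd3 and Gm28438 differ by T3C alone over 345 bases, and are shown over chrM:9459-9498 and chr1:24613080-24613119. mt-Co1 and Gm29216 differ by T1056A, C1057T, A1059G, A1060G, C1062A and A1066T, all within the first 13 bases of the copy, and are shown over chrM:6381-6420 and chr1:24616158-24616197. Capitals mark the bases that differ.
mt-Nd3: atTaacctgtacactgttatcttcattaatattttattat
Gm28438: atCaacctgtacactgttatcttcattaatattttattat
mt-Co1: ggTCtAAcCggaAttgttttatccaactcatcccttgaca
Gm29216: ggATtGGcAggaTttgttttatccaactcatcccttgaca
Of the 249 windows of 100 bases in mt-Nd3, 6 are not in Gm28438. Gm29216 holds bases 1054 to 1545 of mt-Co1, and 13 of its own 393 windows are not in mt-Co1, those that touch the differing bases.

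Gm28439 breaks off inside mt-Nd4. It matches the first 876 of the 1378 bases without a difference, so that 502 of 1279 windows of mt-Nd4 lie outside the copy while all 777 windows of Gm28439 lie inside mt-Nd4. The edge is shown over chrM:11023-11062 and chr1:24611535-24611554, with the bases beyond the copy in capitals.
mt-Nd4: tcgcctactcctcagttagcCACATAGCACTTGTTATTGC
Gm28439: tcgcctactcctcagttagc
A fragment that lies wholly within the first 876 bases of mt-Nd4 holds no base that differs from Gm28439.

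Most of the counts of the 5 nearly complete pairs were assigned to the nuclear copy. Over these 5 pairs the copy held 89.97% of the counts in library 2 and 77.0% in library 1 (mean 83.5 ± 9.17%, SD). Over all 7 pairs it was 42.5% in library 2 and 36.0% in library 1 (mean 39.3 ± 4.54%, SD), since mt-Co1 and mt-Nd4 kept nearly all of theirs. Gm28438, the copy of mt-Nd3, took the largest share of the 7, 98.3% in library 2 and 94.7% in library 1. Gm10222 took 92.8% of its pair with mt-Nd4l in library 2 and 89.0% in library 1.

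For the 3 longer identical pairs the division itself was uncertain. Gm28661 took 93.7% of its pair with mt-Co2 in library 2 and 70.5% in library 1. Gm28437 took 91.4% of its pair with mt-Co3 in library 2 and 77.3% in library 1, and Gm10925 took 84.0% of its pair with mt-Atp6 in library 2 and 79.0% in library 1. The deposited posterior mean counts, a second estimate from the same reads, gave these copies less. They were 79.5% in library 2 and 61.1% in library 1 for Gm28661, 67.9% in library 2 and 63.4% in library 1 for Gm28437, and 68.9% in library 2 and 67.8% in library 1 for Gm10925. The deposited posterior SD of mt-Co2 was 79.1% of its posterior mean count in library 2 and 31.1% in library 1. For mt-Co3 it was 72.8% in library 2 and 56.1% in library 1, and for mt-Atp6 54.8% in library 2 and 42.4% in library 1. The 2 shorter pairs were not free of it, with 26.6% in library 2 and 9.13% in library 1 for mt-Nd3. For mt-Nd4l the posterior SD was 13.4% in library 2 and 6.05% in library 1. For mt-Co3 the deposited credibility interval, whose level is not given in the sources used here, ran from 1530.2 to 15713 TPM in library 2 and from 7490.1 to 35931 TPM in library 1.

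The sum of a gene and its copy did not carry this uncertainty. Expected and posterior mean counts, summed over the pair, differed by at most 0.11 counts in any of the 7 pairs and either library. The pooled expected count was a whole number in both libraries, to within 0.015, in 5 of 7 pairs. Of the 22 genes with counts, 7 had whole single counts, to within 0.005, and a posterior SD of 0 in both libraries: mt-Rnr1, mt-Rnr2, mt-Nd1, mt-Atp8, mt-Nd5, mt-Nd6 and mt-Cytb, none of which has a copy in the chromosome 1 block.

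Gm29216 and Gm28439, the 2 partial copies at the ends of the block, went opposite ways between the libraries. Gm29216 had 57906 counts and 12307 TPM in library 2, against 6768 counts and 960.05 TPM in library 1, which was 8.21% of its pair with mt-Co1 in library 2 and 0.289% in library 1. Gm28439 had 31.4 counts and 2.95 TPM in library 2, against 65378 counts and 4138 TPM in library 1, which was 0.0166% of its pair with mt-Nd4 in library 2 and 7.83% in library 1. The posterior SD was small beside these differences for Gm29216, at 0.671% of the posterior mean in library 2 and 3.66% in library 1. For Gm28439 it was 35.5% in library 2 and 1.41% in library 1. What sets these 2 assignments was not tested.

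**Figure D2:**
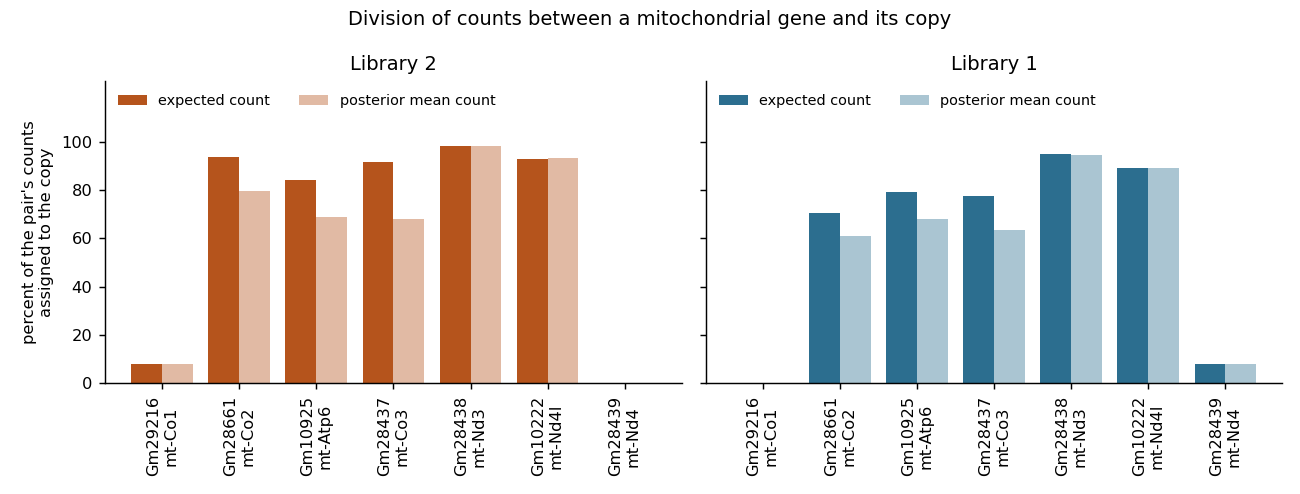
Percent of the counts of each pair that was assigned to the chromosome 1 copy, in library 2 (left) and library 1 (right), by expected count (dark bars) and by posterior mean count (light bars). The 5 nearly complete copies hold between 61.1% and 98.3% of their pairs, the posterior mean bars are lower for Gm28661, Gm10925 and Gm28437, and Gm29216 and Gm28439 are each above 7% in 1 library and under 0.3% in the other.

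The 7 mitochondrial subunits of complex I, the NADH dehydrogenase through which electrons enter the chain, differed in level by well over an order of magnitude. Levels of genes with a copy are given as single TPM of the gene and as pooled TPM, the summed counts of gene and copy per effective length of the mitochondrial gene. Among genes without a copy, mt-Nd2 had 9645 TPM in library 2 and 32467 TPM in library 1, mt-Nd1 had 8293 TPM in library 2 and 21888 in library 1, and mt-Nd5 had 3694 TPM in library 2 and 11023.5 in library 1. mt-Nd4 had 189291 counts and 10305 TPM in library 2, against 769797 counts and 28261 TPM in library 1. Adding Gm28439 made this 10306 TPM in library 2 and 30661 TPM in library 1, so the copy moved the level in library 1 and hardly in library 2. mt-Nd4l had 1796 counts and 1002 TPM in library 2 and 9490 counts and 3517 TPM in library 1. With Gm10222, which had 23185 counts in library 2 and 76902 in library 1, it came to 13939 TPM in library 2 and 32016 TPM in library 1. The order of these genes thus turned on the copy: mt-Nd4l was below mt-Nd1, mt-Nd2 and mt-Nd4 by its own counts in both libraries, and above mt-Nd1 and mt-Nd4 in both libraries, and mt-Nd2 in library 2, once pooled.

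mt-Nd3 showed the largest step. Its own counts were 396 in library 2 and 4256 in library 1, or 157 TPM in library 2 and 1118 TPM in library 1. Gm28438 held 23185 counts in library 2 and 75673 in library 1, and the pair came to 9331 TPM in library 2 and 21000.3 TPM in library 1. By single TPM mt-Nd3 was 13th of the 13 coding genes in library 2 and 12th in library 1, and by pooled TPM it was 10th in library 2 and 11th in library 1. mt-Nd6, the only coding gene on the minus strand, had 2056 counts and 402 TPM in library 2 and 7749 counts and 1011 TPM in library 1. It was the lowest coding gene by pooled TPM in both libraries. These values are of poly(A)-selected RNA, and the share of mt-Nd6 RNA that carries a tail was not measured.

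Cytochrome b, the mitochondrial subunit of complex III, is coded by mt-Cytb. It had 218203 counts and 14784 TPM in library 2, against 819617 counts and 37416 TPM in library 1, with no copy to share them. It made up 6.11% of the pooled TPM of the 13 coding genes in library 2 and 6.12% in library 1, the smallest difference in percentage points among genes above 1% of the pool.

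The 3 catalytic-core subunits of complex IV, cytochrome c oxidase, stood in the order mt-Co1, mt-Co2 and mt-Co3 when pooled. mt-Co1 had the highest count of all 44 genes, 647227 in library 2 and 2331893 in library 1, with 30899 TPM in library 2 and 75114 TPM in library 1. Pooled with Gm29216 it came to 33664 TPM in library 2 and 75332 TPM in library 1. mt-Co2 had 12627 counts and 1648 TPM in library 2, against 213637 counts and 18704 TPM in library 1. With the 188360 counts of Gm28661 in library 2 and the 509342 in library 1, it came to 26232.5 TPM in library 2 and 63297 TPM in library 1. mt-Co3 had 17800 counts and 1934 TPM in library 2, against 159078 counts and 11611 TPM in library 1. With Gm28437, which had 189630 counts in library 2 and 542668 in library 1, its pair reached 22536 TPM in library 2 and 51219 TPM in library 1. Single values placed mt-Co2 and mt-Co3 below mt-Nd1 in both libraries, and pooled values placed them above it in both.

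ATP synthase takes a pair of mitochondrial subunits, coded by mt-Atp6 and mt-Atp8, whose reading frames overlap on 1 messenger RNA. mt-Atp8 is printed whole, over chrM:7766-7969 (plus strand), because it is the one gene of this stretch without a copy in the table; capitals mark the 43 bases it shares with mt-Atp6.
mt-Atp8: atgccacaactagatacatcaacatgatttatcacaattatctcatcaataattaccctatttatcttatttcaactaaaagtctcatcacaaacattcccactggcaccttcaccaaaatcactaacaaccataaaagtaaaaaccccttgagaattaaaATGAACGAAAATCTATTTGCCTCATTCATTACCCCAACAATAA
mt-Atp8 had 37163 counts in library 2 and 130518 in library 1. Its 204 bases leave an effective length of 40.03 bases in library 2 and 39.8 in library 1, so these counts became 60165 TPM in library 2 and 143799 TPM in library 1, the highest TPM of any gene in each library. mt-Atp6 had 35359 counts and 4643 TPM in library 2, against 215165 counts and 18951 TPM in library 1. With Gm10925, which had 185288 counts in library 2 and 810295 in library 1, it came to 28973.5 TPM in library 2 and 90319.5 TPM in library 1.

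The levels of the 2 genes on this shared messenger RNA lay closer together when pooled than singly. The TPM of mt-Atp8 was 12.96 times the single TPM of mt-Atp6 in library 2 and 7.59 times in library 1. Against the pooled TPM of mt-Atp6 it was 2.07 times in library 2 and 1.58 times in library 1. mt-Nd4l and mt-Nd4 also share a messenger RNA and overlap by 7 bases. The single TPM of mt-Nd4 was 10.3 times that of mt-Nd4l in library 2 and 8.04 times in library 1, whereas pooled mt-Nd4l was 1.38 times pooled mt-Nd4 in library 2 and 1.07 times in library 1.

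**Figure D3:**
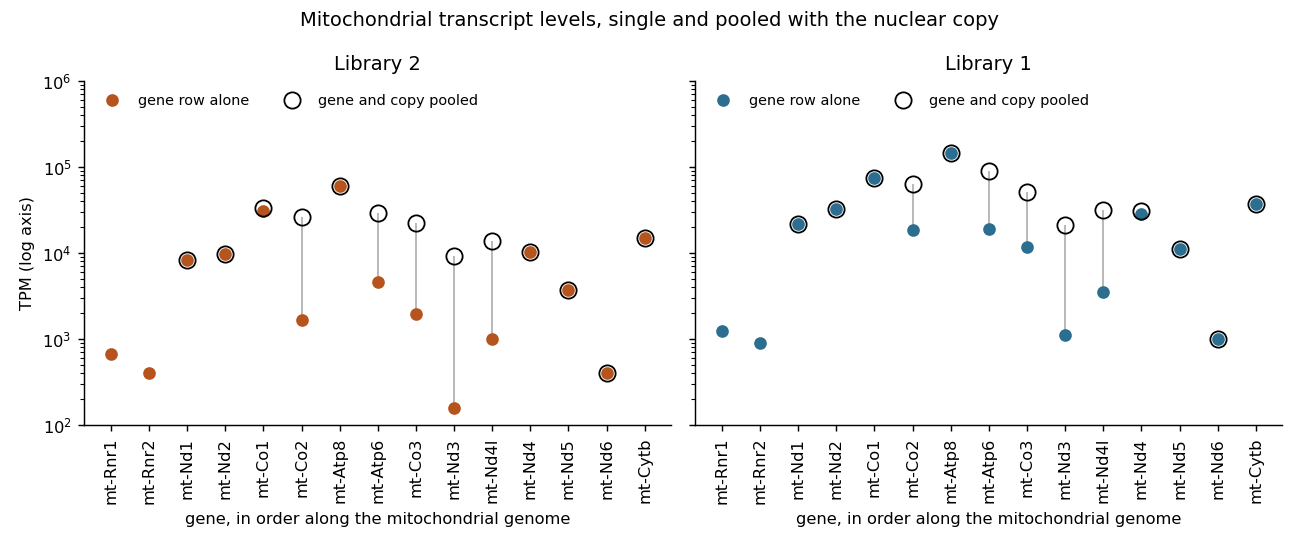
TPM on a log axis of the 2 rRNA and 13 coding genes in order along the mitochondrial genome, in library 2 (left) and library 1 (right). Filled points are the gene's own value and open circles the value with its chromosome 1 copy added; the grey line is longest for mt-Nd3 in both panels, which moves to 9331 TPM in library 2 and 21000.3 TPM in library 1.

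The 2 ribosomal RNAs, which are more abundant than messenger RNAs in mitochondria but carry only short tails, were minor in these poly(A)-selected libraries. mt-Rnr1, the RNA of the small subunit, had 7836 counts and 662 TPM in library 2, against 21772 counts and 1237 TPM in library 1. mt-Rnr2, the RNA of the large subunit, had 8678 counts and 403 TPM in library 2, against 28866 counts and 905 TPM in library 1. Together they were 1.10% of the counts of the 37 mitochondrial genes in library 2 (95% exact binomial interval 1.09 to 1.12%) and 0.824% in library 1 (0.817 to 0.831%). These intervals cover counting error only. The TPM of mt-Co1 was 46.7 times that of mt-Rnr1 in library 2 and 60.7 times in library 1.

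All 22 tRNA genes had a count of 0 in both libraries. They are 59 to 75 bases long, and the deposited effective length of each is 0, so no fragment of these libraries could have been assigned to them. Their 0 therefore describes the table and not the amount of mitochondrial tRNA. They lie on both strands, 14 on the plus strand and 8 (mt-Tq, mt-Ta, mt-Tn, mt-Tc, mt-Ty, mt-Ts1, mt-Te and mt-Tp) on the minus strand.

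By strand, nearly all counted mitochondrial signal in these poly(A)-selected libraries was assigned to plus-strand genes. The 28 plus-strand genes summed to 148234 TPM in library 2 and 406012 TPM in library 1. The 9 minus-strand genes summed to 402 TPM in library 2 and 1011 TPM in library 1, all of it from mt-Nd6. The other 8 are tRNA genes with an effective length of 0, to which no fragment could be assigned. These sums therefore do not measure the RNA made from each strand. mt-Nd6 made up 0.139% of the counts of the 13 coding genes in library 2 (95% exact binomial interval 0.133 to 0.145%) and 0.127% in library 1 (0.124 to 0.130%). With the copies added it was 0.166% of the pooled TPM of the coding genes in library 2 and 0.165% in library 1. The TPM of mt-Cytb, its neighbour on the other strand, was 36.8 times that of mt-Nd6 in library 2 and 37.0 times in library 1, and that of mt-Nd5, which precedes it, 9.20 times in library 2 and 10.9 times in library 1. These ratios do not allow for a difference in poly(A) tails between the genes, which was not measured. Whether the counting used the strand of the reads is not given in the sources used here. RNA from mt-Nd6 and from the strand opposite to it therefore cannot be told apart.

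Summed by complex over genes and copies, complex IV and ATP synthase led by TPM, and complex IV and complex I by counts. Complex I summed to 558264 counts and 56084 TPM in library 2, against 2440524 counts and 152845 TPM in library 1. Complex III had the values of mt-Cytb alone. Complex IV summed to 1113550.15 counts and 92158 TPM in library 2, against 3763386 counts and 190924 TPM in library 1. ATP synthase summed to 257810.0 counts and 89287.5 TPM in library 2, against 1155978 counts and 234551 TPM in library 1. Most of this TPM was that of the short mt-Atp8, 60165 TPM in library 2 and 143799 TPM in library 1. Its other entries, mt-Atp6 and Gm10925, summed to 29122 TPM in library 2 and 90752 TPM in library 1, below complex I in both. In these sums each entry keeps its own TPM. The mitochondrial genes alone gave 33497 TPM in library 2 and 99286 TPM in library 1 for complex I, 34481 TPM in library 2 and 105429 TPM in library 1 for complex IV, and 64808 TPM in library 2 and 162750.0 TPM in library 1 for ATP synthase.

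Adding the copies raised the share of ATP synthase by counts and lowered it by TPM. By counts of the 13 coding genes alone, ATP synthase made up 4.90% in library 2 and 5.67% in library 1. With the copies it made up 12.0% in library 2 and 14.1% in library 1. By TPM it made up 43.9% in library 2 and 40.2% in library 1 alone, and 35.4% in library 2 and 38.1% in library 1 with copies, so which library had the larger share also depends on the scale. Complex I made up 34.6% of counts in library 2 and 36.5% in library 1 alone. With copies it made up 26.0% of counts in library 2 and 29.8% in library 1. Complex III made up 14.7% of counts in library 2 and 13.5% in library 1 alone. With copies it made up 10.2% of counts in library 2 and 10.0% in library 1. Complex IV made up 45.8% of counts in library 2 and 44.4% in library 1 alone, and 51.8% in library 2 and 46.0% in library 1 with copies. By TPM of the mitochondrial genes alone it was the smaller in library 2, at 23.4% against 26.0% in library 1, so the direction of this difference depends on the scale as well.

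Within the pooled messenger pool, 12 of 13 genes held their place to within 1 rank. mt-Atp8 led with 24.9% of the pooled TPM in library 2 and 23.5% in library 1. mt-Atp6 had 12.0% in library 2 and 14.8% in library 1, and mt-Co1 13.9% in library 2 and 12.3% in library 1, so these neighbours changed order between the libraries. mt-Co2 (10.8% in library 2, 10.4% in library 1), mt-Co3 (9.31% in library 2, 8.38% in library 1) and mt-Cytb were 4th to 6th in both. mt-Nd2 was 9th in library 2 with 3.99% and 7th in library 1 with 5.31%, the largest shift in rank. mt-Nd5 was 12th in both libraries, with 1.53% in library 2 and 1.80% in library 1.

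**Figure D4:**
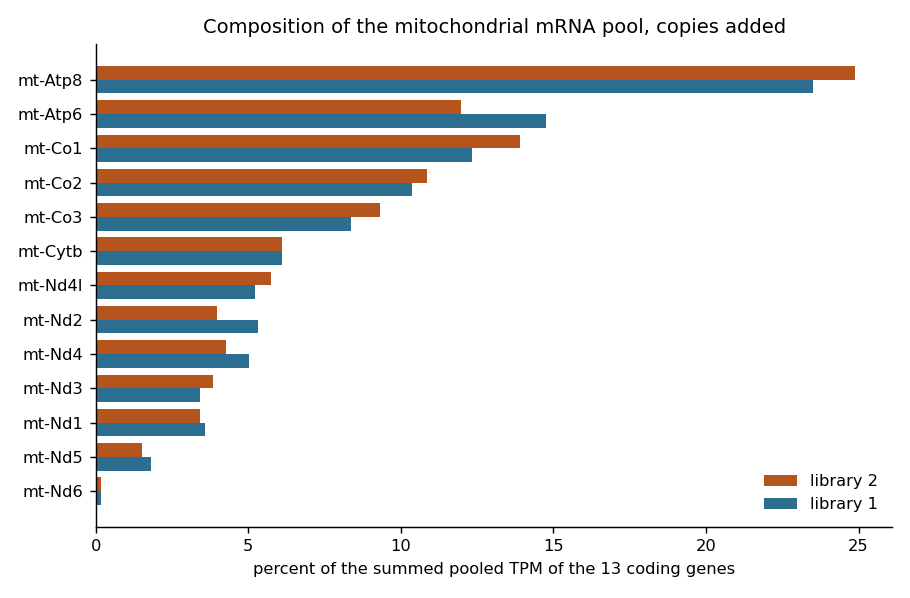
Percent of the summed pooled TPM of the 13 coding genes held by each gene, copies added, in library 2 (upper bar of each pair) and library 1 (lower bar). mt-Atp8 leads with 24.9% in library 2 and 23.5% in library 1, mt-Nd6 is last with 0.166% in library 2 and 0.165% in library 1, and mt-Atp6, mt-Nd2, mt-Nd4, mt-Nd1, mt-Nd5 and, barely, mt-Cytb have the longer bar in library 1.

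Of all counts, the 44 genes together held 11.1% in library 2 and 35.3% in library 1 (mean 23.2 ± 17.1%, SD). Their TPM share averaged 43.6 ± 25.8% (SD), with 25.3% for library 2 and 61.8% for library 1. The TPM share of the 7 copies alone averaged 15.8 ± 7.50% (SD), with 10.5% for library 2 and 21.1% for library 1. Set against nuclear protein-coding genes, the 44 genes amounted to 34.4% of their TPM in library 2 and 164% in library 1. Among the 10 highest genes by TPM, 6 in library 2 and 9 in library 1 belonged to the 44, of which 3 in library 2 and 4 in library 1 were copies. A smaller number of cells and less RNA per cell cannot be told apart in whole tissue, and here both libraries came from the same animal.

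Between the libraries, 21 of the 22 genes with counts were lower in library 2 and 1, Gm29216, was higher. Calls required a log2 fold past 1 or −1 (library 2 over library 1, after scaling by trimmed mean of M-values, TMM) and an adjusted p under 0.05 (exact binomial test, two-sided, Benjamini-Hochberg). Among all 12728 genes tested, 23.7% were called lower, 32.6% higher and 56.3% in either direction. The median log2 fold was −2.27 for the 22 genes and 0.04 for all tested genes. What is compared are the reads of 2 libraries of 1 liver, and no conditions. The test takes the rounded counts as observed and leaves out the uncertainty of dividing reads between a gene and its copy. Such a gene and its copy draw on the same reads, so their calls are not separate observations. With total-count scaling, which moves every log2 fold by 0.58, 21 were lower and 1 higher, against 7.43% lower and 41.8% higher among all genes. The direction depends on a scale set outside these genes: when their own sum was the scale, 4 were called lower and 10 changed sign.

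Genes that need no division of reads all fell, by differing amounts. mt-Cytb had a log2 fold of −2.23 (95% exact binomial interval −2.24 to −2.23), mt-Nd6 −2.24 (−2.31 to −2.17), mt-Nd1 −2.29, mt-Nd5 −2.47 and mt-Atp8 −2.14. The 6 coding genes without a copy ranged from −2.64 for mt-Nd2 to −2.14 for mt-Atp8, with a median of −2.27. The log2 folds of the rRNA genes were −2.06 for mt-Rnr2 and −1.80 for mt-Rnr1. By single values these were the nearest to 0 among the 15 mitochondrial genes with counts. Pooled with its copy, mt-Co1 was at −2.053, against −2.057 for mt-Rnr2.

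Single values of the genes with a copy spread much further. The 7 genes with a copy ranged from −4.40 for mt-Co2 to −2.17 for mt-Co1, with mt-Nd3 at −3.75, mt-Co3 at −3.48, mt-Atp6 at −2.93, mt-Nd4l at −2.72 and mt-Nd4 at −2.35. Copies ranged from −11.34 for Gm28439 to 2.77 for Gm29216, with the other 5 between −2.45 and −1.76. With posterior mean counts in place of expected counts, mt-Co2 was at −3.10 and mt-Co3 at −2.27. When each gene was summed with its copy, the 7 log2 folds lay between −2.54 (mt-Atp6) and −2.05 (mt-Co1), with a median of −2.11. mt-Co2 was then at −2.17, mt-Co3 and mt-Nd3 at −2.08, mt-Nd4l at −2.11 and mt-Nd4 at −2.46. Pooled, mt-Co2, mt-Co3 and mt-Nd3 thus lay within the range of the other pairs. By complex, pooled log2 folds were −2.45 for complex I, −2.23 for complex III, −2.08 for complex IV and −2.49 for ATP synthase.

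Mitochondrial transcripts are poor in GC, and nuclear genes of like GC content were also mostly lower in library 2. Transcripts of the 13 coding genes had 31.9% to 41.1% GC (median 37.1%), against a median of 50.4% for 11980 tested nuclear protein-coding genes, whose median log2 fold was 0.08. Of the 596 nuclear protein-coding genes within the GC range of the 13, 561 (94.1%) were called lower. Each of the 13 coding genes lay below the median log2 fold of nuclear protein-coding genes within 2 percentage points of its own GC content, with differences from −2.74 (mt-Co2) to −0.24 (mt-Nd6) and a median of −0.73. This median rests on 1 nuclear gene for mt-Atp8, 6 for mt-Nd3 and 22 for mt-Nd6. It rests on 73 for mt-Nd4, 79 for mt-Nd2 and 96 for mt-Atp6. For the other coding genes it rests on 202 (mt-Nd5) to 1139 (mt-Nd4l). mt-Rnr1 did not lie below the median of its own window (0.037 above). Relative to such genes, 6 of the 22 were past the threshold as lower: mt-Co2, mt-Atp6, mt-Co3, mt-Nd3, mt-Nd4l and Gm28439, each of which belongs to a pair whose counts were divided. All these differences use single values. Pooled with its copy, mt-Co2 had a log2 fold of −2.17, against a median of −1.66 for nuclear genes of like GC. For mt-Atp6 it was −2.54 against −1.85, and for mt-Co3 −2.08 against −1.64. For mt-Nd3 it was −2.08 against −1.94, and for mt-Nd4l −2.11 against −1.44. These pooled values were not past the threshold relative to that median. The part of GC content in the fall was not tested beyond these values.

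**Figure D5:**
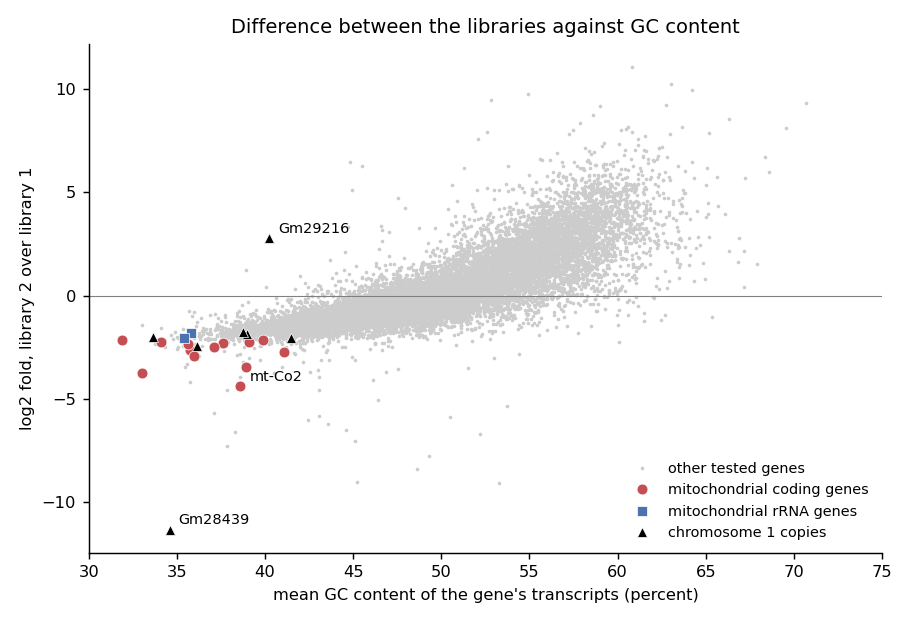
Log2 fold of library 2 over library 1 (TMM scaling) against the mean GC content of each gene's transcripts in percent, for mitochondrial coding genes (circles), rRNA genes (squares), chromosome 1 copies (triangles) and other tested genes (grey points). Mitochondrial coding genes sit between −4.40 and −2.14 at 31.9% to 41.1% GC, and Gm28439 at −11.34 and Gm29216 at 2.77 stand apart from them.

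Nuclear genes that transcribe, cut and translate mitochondrial RNA were called at shares near those of all genes. Over 4 lists with 64 genes tested, 18 were called higher in library 2, 17 lower and 29 neither, where 32.6% of all genes were higher and 23.7% lower. With total-count scaling 22 were higher and 3 lower, where 41.8% of all genes were higher and 7.43% lower. For transcription and the nucleoid, 6 of 18 were higher and 5 lower, with a median log2 fold of −0.16, which turned to 0.42 with total-count scaling. Polrmt, the mitochondrial RNA polymerase, was higher in library 2 (336 counts against 9 in library 1, log2 fold 4.82). Tfam, which packs the mitochondrial genome and starts its transcription, had 32.2 TPM in library 2 and 49.3 TPM in library 1 and was not called (−0.999, just inside the threshold). Ssbp1, which binds its single-stranded DNA, had 31.6 TPM in library 2 and 32.9 in library 1 (−0.96, not called). Mterf3 and Mterf1b, of the transcription termination factor family, were lower (−1.43 and −2.30).

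Calls among genes for RNA maturation and stability are read against the same shares of all genes, 32.6% higher and 23.7% lower, or 41.8% and 7.43% with total-count scaling. Of 19 genes for RNA cleavage and tRNA maturation, 7 were higher and 4 lower (median 0.39; 9 and 1 with total-count scaling). Hsd17b10, a subunit of the enzyme that cuts the 5′ ends of mitochondrial tRNAs, had 184.66 TPM in library 2 and 64.8 TPM in library 1 (0.62, not called). Its partner Trmt10c was lower (−1.59), and Pus1, a pseudouridine synthase, was higher (5.03). Nsun2, an RNA cytosine methyltransferase, had 31.3 TPM in library 2 and 18.1 in library 1 (−0.041), and Ptcd2 had 20.7 TPM in library 2 and 14.8 in library 1 (−0.41), neither called. Of 14 genes for stability, polyadenylation and decay, 2 were higher and 7 lower (median −0.79; 2 and 1 with total-count scaling). Grsf1, an RNA-binding protein of mitochondrial RNA granules, was lower (54.1 TPM in library 2, 65.3 in library 1, −1.12), as was the exoribonuclease gene Pnpt1 (−1.83). Tbrg4 was higher (3.83). Slirp, which protects messenger RNAs (35.5 TPM in library 2, 28.4 in library 1, −0.46), and the oligoribonuclease gene Rexo2 (61.3 TPM in library 2, 38.2 in library 1, −0.21) were not called. Among 13 translation factor genes, 3 were higher and 1 lower (median 0.02; 4 and 0 with total-count scaling). The elongation factor gene Tufm was higher (79.9 TPM in library 2, 3.85 in library 1, 3.47) and the initiation factor gene Mtif2 lower (−1.24). Gfm1 (58.2 TPM in library 2, 41.2 in library 1, −0.56) and Gfm2 (20.1 TPM in library 2, 18.5 in library 1, 0.15) were not called.

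Nuclear subunits of the same complexes had more calls in the opposite direction. Over the 4 lists, 36 of 71 tested genes were called higher in library 2, 3 lower and 32 neither, where 32.6% of all genes were higher and 23.7% lower. With total-count scaling 46 were higher and 0 lower, where 41.8% of all genes were higher and 7.43% lower. For complex I it was 19 of 36 higher and 2 lower, with a median log2 fold of 1.01. Ndufa11 was higher (642 counts in library 2, 5 in library 1, 6.55), as were Ndufa3 (435 TPM in library 2, 32.3 in library 1, 2.82) and Ndufb9 (404 TPM in library 2, 107 in library 1, 1.01), while Ndufv2 was lower (133.6 TPM in library 2, 199 in library 1, −1.20). Ndufa6 had 299.97 TPM in library 2 and 123 in library 1 (0.38, not called). For complex III it was 5 of 9 higher and 1 lower (median 3.26), with Uqcr11 higher (1798 counts in library 2, 9 in library 1, 7.24), Uqcrq higher (447 TPM in library 2, 44.0 in library 1, 3.27) and Uqcrb lower (472.5 TPM in library 2, 749 in library 1, −1.57). Uqcrh was not called (529 TPM in library 2, 153 in library 1, 0.89).

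Calls for complex IV and ATP synthase are read against the same shares of all genes. These were 32.6% higher and 23.7% lower, or 41.8% and 7.43% with total-count scaling. For complex IV, 5 of 11 tested nuclear genes were higher and 0 lower (median 0.86), and 1 listed gene fell under the count minimum. With total-count scaling 6 were higher for complex IV and 10 for ATP synthase, with 0 lower in either. Cox4i1 was higher (493 TPM in library 2, 23.4 in library 1, 3.90). Ndufa4 had 1016 TPM in library 2 and 759 in library 1 (−0.49), Cox6c had 619.8 in library 2 and 285 in library 1 (0.19), and Cox6b1 had 608 in library 2 and 249 in library 1 (0.38), none called. For ATP synthase it was 7 of 15 higher and 0 lower (median 0.85), with Atp5d higher (261 TPM in library 2, 1.64 in library 1, 6.40). Atp5b, the catalytic beta subunit, had 999 TPM in library 2 and 281 TPM in library 1 (0.85), Atp5g3 had 715 in library 2 and 337 in library 1 (0.18), and Atp5j had 378 in library 2 and 553 in library 1 (−0.99), none called. Uqcrb, at 41.3% GC, and Ndufv2, at 45.3%, are poorer in GC than Uqcr11 (59.1%) and Ndufa11 (58.3%). What part GC content has in these differences was not tested.

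The ratio of mitochondrial to nuclear transcripts of a complex differed between the libraries. With each entry at its own TPM, mitochondrial complex I genes and their copies summed to 9.89 times the summed TPM of its listed nuclear genes in library 2 and 79.9 times in library 1. For complex III it was 4.85 times in library 2 and 29.8 times in library 1, for complex IV 17.8 times in library 2 and 83.7 times in library 1, and for ATP synthase 15.3 times in library 2 and 90.3 times in library 1. The lowest ratio in each library was that of complex III, which has 1 mitochondrial gene. Most of the mitochondrial sum of ATP synthase was that of the short mt-Atp8. It had 60165 of 89287.5 TPM in library 2 and 143799 of 234551 TPM in library 1. What sets the differences between complexes was not tested.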

How the data were processed

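Both libraries were used, and no groups were compared since they form 1 group of 1 animal. Per the file headers, the authors deposited expected counts (estimated counts, not normalised) per gene, TPM, FPKM, posterior mean counts, and, used here as scores, the posterior SD of the count and bounds of a TPM interval; FPKM is not printed. Alignments were to mm10, with the M4 annotation, per the deposited file descriptions; for the aligner, counter and strand setting: not given in the sources used here. Symbols, positions and sequences came from GENCODE M21 on the same assembly, which had a symbol for 42462 of 43346 Ensembl genes and the same identifier and version for all 44. Copies were matched to mitochondrial transcripts base by base and by shared words of 25, 50 and 100 bases. GC content is the mean over a gene's transcripts.

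Expected counts were rounded, and genes whose counts summed to 20 or more entered an exact binomial test at TMM-scaled library sizes (edgeR 4.0.16; prior count 0.5). Benjamini-Hochberg adjustment was over 12728 genes. The test was tried on simulated counts with known folds and counting error only. That cannot show how it behaves with the differences by GC content or the divided reads of these libraries. With 1 library a side no residual degrees of freedom are left for edgeR's quasi-likelihood test. Adjusted p-values of the 22 genes are below the smallest number the software holds and are not printed. Log levels used log2(TPM + 0.1). DESeq2 1.42.0 size factors and other settings were alternatives. The genes and lists were chosen with earlier results of these data known. Named genes are all 44, and of each list the 3 highest by mean TPM and the largest called fold in each direction; Prorp and Mtres1 had no match. Python 3.11.15, scipy 1.17.1 and R 4.3.3 were used.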

Additional observations from a re-analysis of the deposited data

How the results depend on the processing

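The count of 21 genes lower in library 2 was the same under total-count scaling, DESeq2 size factors, TMM without the 44 genes, no count filter, a minimum of 200 counts, a log2 fold of 0.58 and posterior mean counts (the last chosen after seeing the data). It was 4 when scaled to the sum over the 44 genes and 6 relative to nuclear genes of like GC content, and the 1 higher gene became 0 when copies were summed with their genes. The first of these leaves only differences among the genes, and there 10 log2 folds changed sign: mt-Rnr1 0.45, mt-Rnr2 0.19, mt-Co1 0.078, mt-Atp8 0.11, mt-Nd6 0.013, mt-Cytb 0.018, Gm10222 0.20, Gm28438 0.22, Gm28437 0.41 and Gm28661 0.49. Against nuclear genes of like GC, mt-Rnr1 (0.037) and Gm28438 (0.053) did; the cause was not tested. Of 213 folds under these alternatives, 181 kept direction and call, 20 fell under the threshold and 12 changed sign. All that fell under it or changed sign came from 2 settings. Scaled to the sum over the 44 genes, 7 fell under it, 10 changed sign and 5 kept both. Relative to nuclear genes of like GC it was 13, 2 and 7. Some other settings could not change a fold or call, such as the lower threshold, or summing for genes without a copy. The 181 is therefore no measure of robustness. The share held by the 44 genes (43.6%) is a part of all TPM. Their TPM as a ratio to nuclear protein-coding TPM, another measure, averaged 99.4%. That is the mean of 34.4% in library 2 and 164% in library 1 and describes neither. The copies' share of the pairs (39.3%) became 62.4% by TPM and 33.3% by posterior mean counts. The makeup by counts of all 37 mitochondrial genes was 35.2% complex I, 14.0% complex III, 44.7% complex IV and 5.24% ATP synthase. By TPM it became 23.5%, 9.57%, 24.6% and 41.8%. By counts with copies added it was 27.7%, 10.0%, 48.6% and 12.98%. The share of the 44 genes was 61.8% without library 2 and 25.3% without library 1, and the copies' share of the pairs was 36.0% without library 2 and 42.5% without library 1. Leaving out a library leaves no comparison between libraries. No paired analysis was possible because both libraries form 1 group of 1 animal. Of the 22 genes with counts, Gm28439 in library 2 is the one under 100 counts. Counts cannot show how shared fragments divide between a gene and its identical copy, and the spread between animals was not measured.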

Other observations

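Outside the chromosome 1 block, 2 further nuclear genes had at least 50% of their words of 25 bases in mitochondrial transcripts. Both are unprocessed pseudogenes on the minus strand of chromosome 2, and little was assigned to either. Gm13340 (positions 22588103 to 22589647, GRCm38; 53.7% of words) had 8.10 counts and 0.39 TPM in library 2, against 36.9 counts and 1.19 TPM in library 1. Gm13341 (22587291 to 22587962; 54.0% of words) had 10.8 counts and 1.44 TPM in library 2, against 65.8 counts and 5.90 TPM in library 1. Outside that block, 17 nuclear genes shared at least 1 such word, these 2 included.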
